A study of Betula luminifera with 4 samples.

Results

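The comparison of root with shoot under normal phosphate was described for the genes of Betula luminifera, a Chinese timber birch, that have a plant protein match in the deposited annotation. A gene was taken in when its protein annotation named walnut (Juglans), a genus of the same order as birch, or when its Swiss-Prot description named Arabidopsis thaliana. This gave 26828 of the 76899 assembled genes, 21925 of them through Juglans and another 4903 through Arabidopsis thaliana only. All plants were the single tissue-culture clone G49#, set out in sand as seedlings of 2 months and watered for 2 weeks with a sugar-free Murashige and Skoog solution and then for 2 weeks with deionized water. The CK root library was made from roots of plants then given the solution with 1.25 mM KH2PO4, and the CK shoot library from stem and leaf RNA of the CK plants, pooled in equal amounts. The 2 remaining libraries were LP root and LP shoot, made in the same way from plants whose solution had no KH2PO4 (phosphate at 0 mM) and had K2SO4 in its place. The experiment used 54 plants in a block layout with 3 replicates. How many plants made up a library, and the duration of treatment, are unknown here. Each group is represented by 1 library, so no difference below has a replicate check, and no p-value or spread between plants is given.

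In a young tree, roots take up water and mineral nutrients and load them into the xylem, while leaves fix carbon and send sugar to the roots through the phloem. Roots seal their inner cell files with the Casparian strip and suberin, and shoots cover themselves with a waxy cuticle. Because the shoot libraries held stem as well as leaf, leaf and stem cannot be told apart in them.

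Values are TPM, transcript abundances given as a share of each library's total that is corrected for transcript length. A gene was called higher in one tissue when the higher of its CK values reached 1 TPM and the log2 ratio of CK roots over CK shoots, computed after adding 1 TPM to both values, was 1 or more in size. This scale understates differences between low values. In bulk tissue, fewer cells of a type and less RNA per cell cannot be told apart.

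Of the 26828 genes, 23018 had at least 1 TPM in a CK library. Of these, 4532 were called higher in CK roots (19.7%) and 12037 higher in CK shoots (52.3%), and 6449 fell between the thresholds. The median log2 ratio was -1.17. Of the 4532 genes called higher in CK roots, 1092 were listed at 0 in CK shoots, and of the 12037 called higher in CK shoots, 7301 were listed at 0 in CK roots. Over the 13198 genes of at least 1 TPM in both CK libraries the median log2 ratio was -0.11. The scatter of the 2 libraries shows the 2 arms of such genes along its axes.

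**Figure D1:**
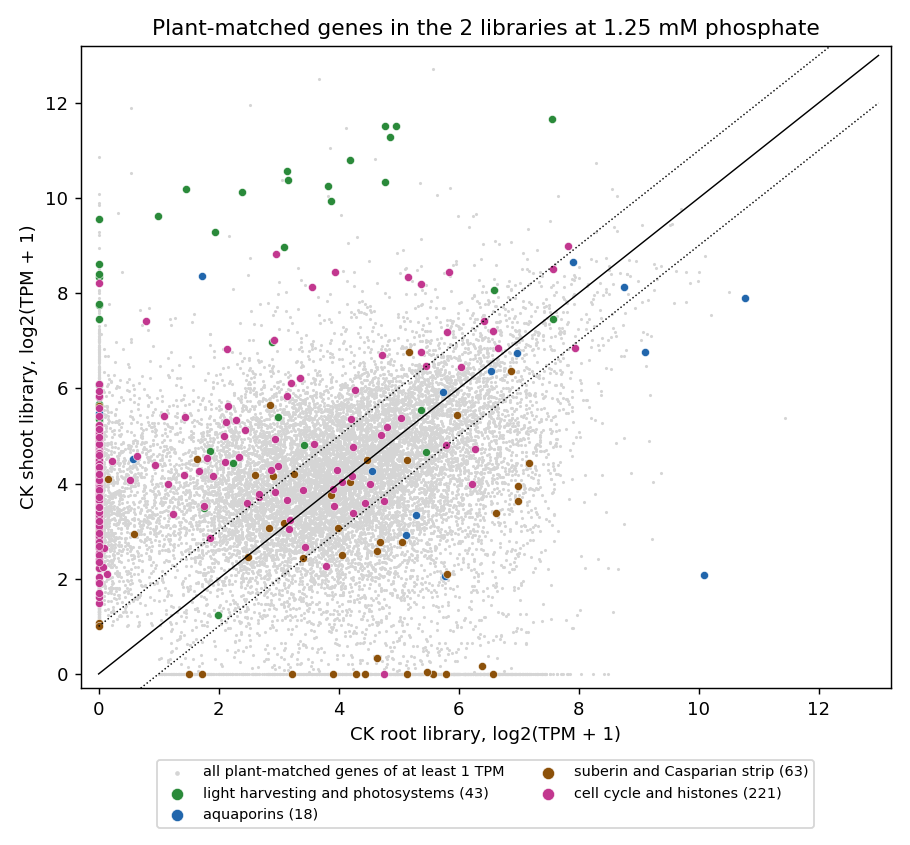
Each point is 1 plant-matched gene of at least 1 TPM in a CK library, with log2(TPM + 1) in CK roots on the horizontal axis and in CK shoots on the vertical axis; dotted lines mark a log2 ratio of 1 in size and coloured points belong to 4 gene lists. The 43 light harvesting and photosystem genes lie above or between the dotted lines, none below them, while the aquaporin TIP1-3 stands far to the right at 1094 TPM in CK roots and 3.25 TPM in CK shoots.

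The plant-matched genes held 52.2% of all TPM in CK roots and 63.8% in CK shoots, while genes with no protein match held 29.04% in CK roots and 15.7% in CK shoots. Zeros were more frequent among short contigs. Of the genes of 200 to under 300 bp, 81.4% were listed at 0 in CK roots and 53.1% in CK shoots, and of the genes of 2000 bp and over, 3.34% were listed at 0 in CK roots and 0% in CK shoots. The short genes that did have a value in CK roots had high ones, and at 300 to under 500 bp the median of values above 0 was 20.8 TPM in CK roots, against 8.10 TPM in CK shoots, 5.44 TPM in LP roots and 7.32 TPM in LP shoots. At 300 bp, a single fragment was worth 0.354 TPM in CK roots and 0.441 TPM in CK shoots, as read from the steps between low values, so 3 fragments were 1.06 TPM in CK roots and 1.32 TPM in CK shoots. Zeros also stood among genes that every cell uses, since 15 of 146 cytosolic ribosomal protein genes were listed at 0 in CK roots and 10 in CK shoots. A zero is therefore given here as a listing only. Among the 9499 genes of at least 1000 bp, 15.5% were called higher in CK roots and 40.8% in CK shoots, with a median log2 ratio of -0.59. The share called higher in CK roots was 25.6% at 200 to under 300 bp, 24.8% at 300 to under 500 bp, 20.2% at 500 to under 1000 bp, 15.7% at 1000 to under 2000 bp and 15.1% at 2000 bp and over. For CK shoots it was 71.7% in the shortest class, then 66.9%, 52.1% and 43.2%, and 34% in the longest. The part of contig length in the counts below was not tested.

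**Figure D2:**
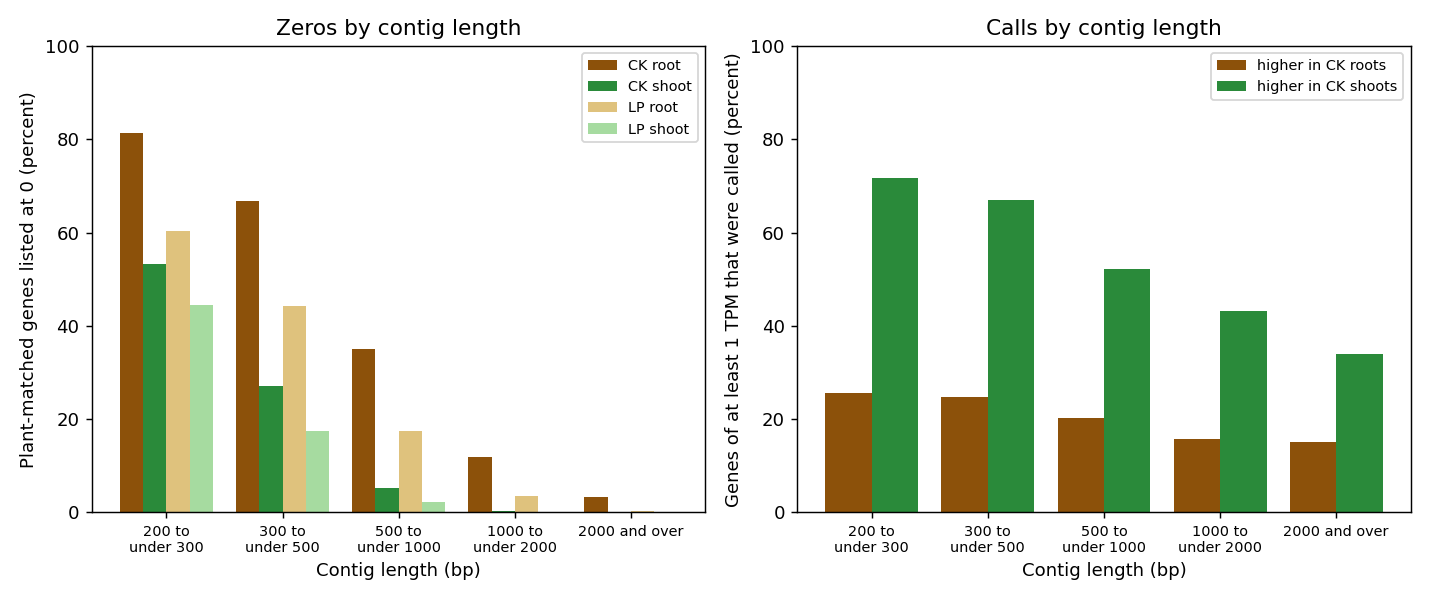
The left panel gives the percent of plant-matched genes listed at 0 in each library by contig length in bp, and the right panel the percent of genes of at least 1 TPM called higher in CK roots or in CK shoots. CK roots had the highest bar of zeros in every length class, from 81.4% at 200 to under 300 bp down to 3.34% at 2000 bp and over.

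Tissue identity was read from markers. All 6 YABBY genes, which set the lower face of leaves, were listed at 0 in CK roots and summed to 373 TPM in CK shoots. The 10 genes drawn by name as stomatal markers, among them SPEECHLESS, MUTE and FAMA, were likewise at 0 in CK roots. They summed to 179 TPM in CK shoots, with SPEECHLESS at 20.1 TPM and FAMA at 6.63 TPM. The name pattern also took in epidermal patterning factor-like contigs (EPFL1, EPFL2 and EPFL4), so the count and sum are not of the stomatal lineage alone. All 5 knotted-1-like genes, of a family that includes regulators of the shoot tip, were called higher in CK shoots. On the root side, SOMBRERO, a root cap regulator, had 19.9 TPM in CK roots and was listed at 0 in CK shoots. Casparian strip membrane protein 1, a scaffold of the endodermal barrier, had 94.3 TPM in CK roots and was also at 0 in CK shoots. Other root markers were divided. Of 9 endodermis genes 5 were called higher in CK roots and 3 in CK shoots, and of 13 root apex genes 4 were called higher in CK roots and 7 in CK shoots. Root hair markers (RSL, COBRA-like 9 and expansin-A7) were not among the plant-matched genes, and CYP86A1, the suberin hydroxylase, was listed at 0 in CK roots and had 1 TPM in CK shoots. Of 4 KANADI genes, also of leaf polarity, none was called higher in CK roots and 2 were in CK shoots. Over all plant-matched genes, 19.7% were called higher in CK roots and 52.3% in CK shoots. The shoot counts of the KANADI and root apex genes are near that share. Of these marker contigs, 4 of the 6 YABBY and 9 of the 10 drawn as stomatal markers were shorter than 1000 bp, so their zeros in CK roots are listings as above.

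Genes were then read by 28 lists drawn from protein names. In 12 lists the share called higher in CK roots was above that of all plant-matched genes and the share called higher in CK shoots was below it. In 10 lists the order was the reverse. At 1000 bp and over, set against all plant-matched genes of that length, these counts were 7 and 13 lists. Transport of phosphate, sulfate and potassium, root surface genes and aquaporins were the lists with a median above 0, and light harvesting had the lowest median, -5.89.

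**Figure D3:**
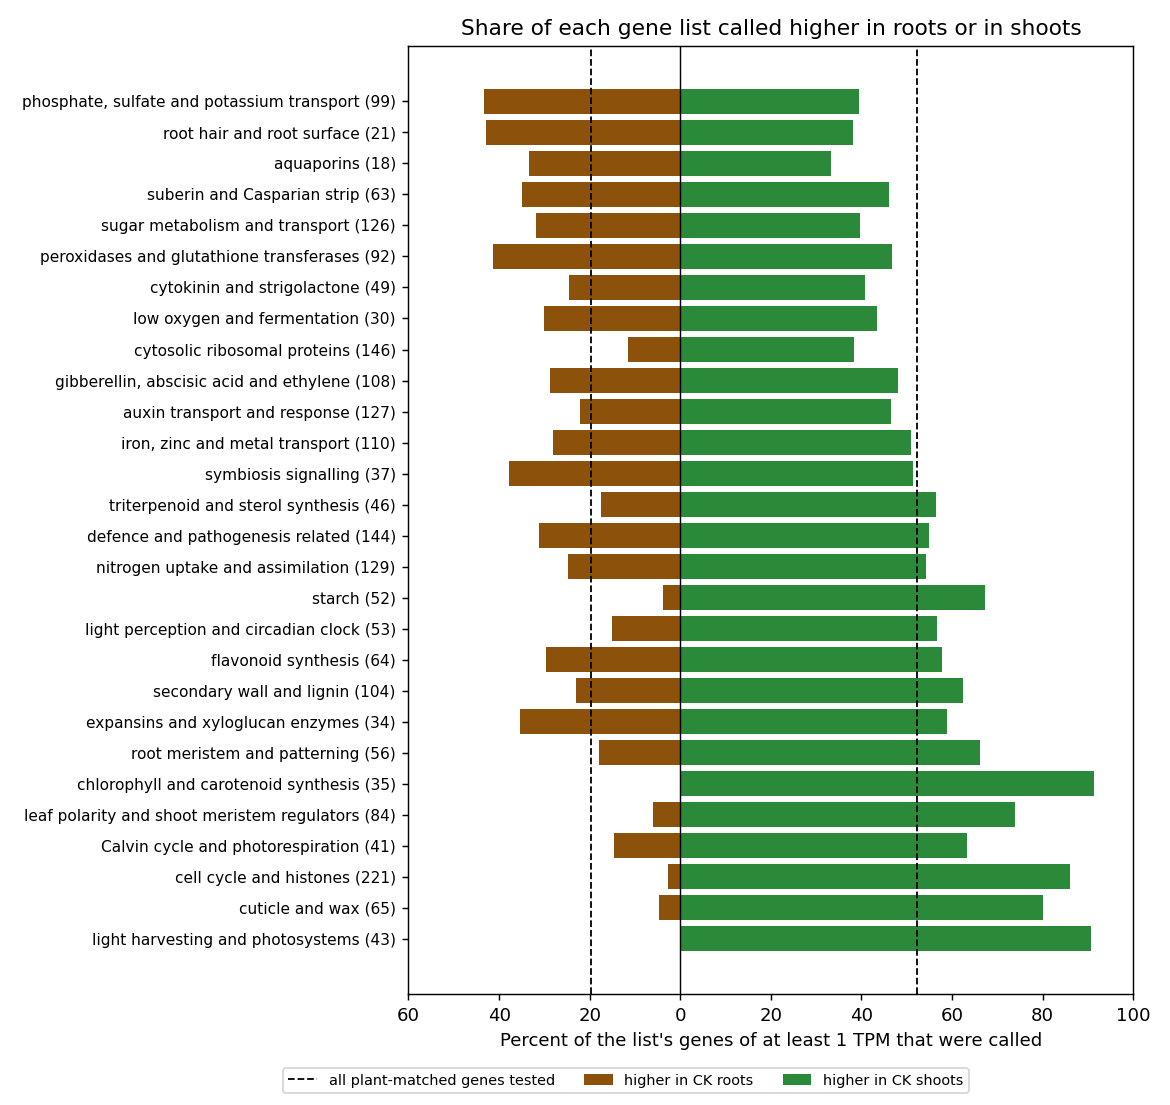
Bars give the percent of each list's genes of at least 1 TPM that were called higher in CK roots (left of 0) or in CK shoots (right of 0), ordered by median log2 ratio, with the number of genes in brackets; dashed lines mark the shares over all plant-matched genes, 19.7% for CK roots and 52.3% for CK shoots. Phosphate, sulfate and potassium transport has the longest root bar, 43.4%, and chlorophyll and carotenoid synthesis the longest shoot bar, 91.4%.

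Photosynthesis was the clearest shoot block. Of 43 genes for light harvesting and the photosystems, none was called higher in CK roots and 39 were in CK shoots, and 17 were listed at 0 in CK roots. Together they held 778 TPM in CK roots and 27386 TPM in CK shoots. LHCB4.2, the CP29 antenna protein of photosystem II, had 29.9 TPM in CK roots and 2925 TPM in CK shoots, a log2 ratio of -6.57. LHCB5, the CP26 antenna protein, had 27.9 TPM in CK roots and 2489.7 TPM in CK shoots. PSBQ2, of the oxygen-evolving complex, had 26.4 TPM in CK roots and 2919.6 TPM in CK shoots. Plastocyanin (PETE), which carries electrons to photosystem I, had 17.2 TPM in CK roots and 1791 TPM in CK shoots. Subunits of photosystem I were also low in CK roots. PSAK was listed at 0 in CK roots and had 755 TPM in CK shoots, PSAH had 1.74 TPM in CK roots and 1164 TPM in CK shoots, and PSAN 7.79 TPM in CK roots and 1512 TPM in CK shoots. The most abundant antenna gene of CK shoots (OsI_012078, 621 bp) had 187 TPM in CK roots and 3234 TPM in CK shoots. Some members were not called. PPD1, a PsbP-domain protein, had 189.9 TPM in CK roots and 175 TPM in CK shoots, and LHCB2.4 had 40.5 TPM in CK roots and 45.5 TPM in CK shoots.

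Carbon fixation genes lay mostly in shoots. Of 41 genes of the Calvin cycle and photorespiration, 6 were called higher in CK roots and 26 in CK shoots. Rubisco activase (RCA), which keeps Rubisco in its active form, had 4.74 TPM in CK roots and 3997 TPM in CK shoots. A contig of 1785 bp, named as an activase by Swiss-Prot but as protein fluG by its walnut match, had 169 TPM in CK roots and 138 TPM in CK shoots, a log2 ratio of 0.30. The chloroplast glyceraldehyde-3-phosphate dehydrogenase GAPA2 was listed at 0 in CK roots and had 623 TPM in CK shoots. Sedoheptulose-1,7-bisphosphatase, an enzyme of the cycle's regeneration phase, was at 0 in CK roots and at 326 TPM in CK shoots. The carbonic anhydrase BCA1 was at 0 in CK roots and at 953 TPM in CK shoots. In photorespiration, the pathway that salvages carbon after Rubisco binds oxygen, glycolate oxidase had 0.25 TPM in CK roots and 823 TPM in CK shoots. The aminotransferase AGT1 had 57 TPM in CK roots and 1190.2 TPM in CK shoots, and glycine dehydrogenase (GDCSP) 71.01 TPM in CK roots and 672 TPM in CK shoots. GLO4, a relative of glycolate oxidase, ran the other way, with 141 TPM in CK roots and 11.2 TPM in CK shoots, a log2 ratio of 3.54. A contig for the Rubisco small chain (RBCS, 729 bp) was also called higher in CK roots, at 25.97 TPM in CK roots against 10.4 TPM in CK shoots.

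Pigment synthesis followed the antenna genes. Of 35 chlorophyll and carotenoid genes, none was called higher in CK roots and 32 were in CK shoots. CRD1, the cyclase that closes the fifth ring of chlorophyll, had 3.53 TPM in CK roots and 592 TPM in CK shoots. CHLH, the large magnesium chelatase subunit, had 4.63 TPM in CK roots and 336 TPM in CK shoots. PORA, the light-requiring reductase, had 1.27 TPM in CK roots and 175 TPM in CK shoots. Glutamyl-tRNA reductase, the entry to tetrapyrrole synthesis, had 2 forms. HEMA1 had 21.01 TPM in CK roots and 189 TPM in CK shoots, and HEMA2, known from nonphotosynthetic tissue in Arabidopsis, had 19.6 TPM in CK roots and 11.7 TPM in CK shoots, under the threshold as deposited and past it (1.004) when both libraries were scaled to the same total over plant-matched genes.

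Light and clock genes were split. Of 53, 8 were called higher in CK roots (15.1%) and 30 in CK shoots (56.6%), near the shares of all plant-matched genes. At 1000 bp and over the shares were 10.5% in CK roots and 52.6% in CK shoots, beside 15.5% and 40.8% for all of that length. The CONSTANS-like genes COL2, COL4 and COL16 were high in CK shoots. COL2 had 18.1 TPM in CK roots and 284 TPM in CK shoots, COL4 6.52 TPM in CK roots and 185 TPM in CK shoots, and COL16 0.13 TPM in CK roots and 219 TPM in CK shoots. The morning clock gene LHY had 40.3 TPM in CK roots and 213 TPM in CK shoots. Among phytochromes, the red-light receptors, PHYC and PHYA were called higher in CK roots and PHYB was not called. PHYC had 97.7 TPM in CK roots and 21.9 TPM in CK shoots, PHYA 40.7 TPM in CK roots and 19.2 TPM in CK shoots, and PHYB 14.6 TPM in CK roots and 14.4 TPM in CK shoots. GIGANTEA, an evening clock gene, had 30.3 TPM in CK roots and 13.3 TPM in CK shoots, and was not called when contigs of one Swiss-Prot entry were summed (log2 ratio 0.49).

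The shoot surface and shoot form lists were shoot-sided. Of 65 cuticle and wax genes, 3 were called higher in CK roots and 52 in CK shoots, and 43 were listed at 0 in CK roots. KCS11, an elongase of very long fatty acids, had 11.1 TPM in CK roots and 115 TPM in CK shoots. CUT1, the elongase of wax precursors, had 0.16 TPM in CK roots and 69.1 TPM in CK shoots. The wax ester synthase WSD1 was listed at 0 in CK roots and had 53.4 TPM in CK shoots, and HOTHEAD, needed for an intact cuticle, was listed at 0 in CK roots and had 45.6 TPM in CK shoots. KCS2, an elongase tied to root suberin in Arabidopsis, had 58.6 TPM in CK roots and 33.9 TPM in CK shoots, a log2 ratio of 0.77 (1.06 when both libraries were scaled to the same total over plant-matched genes). Of 84 leaf polarity and shoot meristem genes, 5 were called higher in CK roots and 62 in CK shoots. YAB5 was listed at 0 in CK roots and had 157 TPM in CK shoots. LET6, the knotted-1-like gene of the shoot meristem, was at 0 in CK roots and at 57.1 TPM in CK shoots. The vascular regulator ATHB-8 was on the root side, with 56.1 TPM in CK roots and 18.8 TPM in CK shoots, and so was TCP2, with 138 TPM in CK roots and 55.2 TPM in CK shoots.

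Of 104 wall and lignin genes, active in wood, 24 were called higher in CK roots (23.1%) and 65 in CK shoots (62.5%). Both shares were above those of all plant-matched genes, 19.7% in CK roots and 52.3% in CK shoots. At 1000 bp and over they were 12.5% in CK roots and 65% in CK shoots, beside 15.5% and 40.8% for all of that length. The cellulose synthases of secondary walls are CESA4, CESA7 and CESA8. Of 8 contigs with these names, 1 was called higher in CK roots, 6 in CK shoots and 1, a CESA4 contig of 2278 bp, in neither. The one higher in CK roots was a CESA8 contig of 269 bp. A CESA8 contig of 1294 bp had 23.8 TPM in CK roots and 61.7 TPM in CK shoots. A CESA4 contig of 1153 bp had 11.3 TPM in CK roots and 59.5 TPM in CK shoots. CESA7 had 3.52 TPM in CK roots and 25.5 TPM in CK shoots. On the route to lignin, phenylalanine ammonia-lyase (PAL3) had 37.8 TPM in CK roots and 206 TPM in CK shoots. The hydroxylase CYP98A2 had 16.6 TPM in CK roots and 217 TPM in CK shoots. The transferase between them, HST, was the Swiss-Prot name of 2 contigs on opposite sides. One of 2121 bp had 174 TPM in CK roots and 25.1 TPM in CK shoots. The other, of 586 bp, was listed at 0 in CK roots and had 143 TPM in CK shoots. Its walnut match names a spermidine hydroxycinnamoyl transferase, so its name is uncertain. Cinnamoyl-CoA reductase (CCR1) had 235 TPM in CK roots and 293 TPM in CK shoots and was not called. A contig of 1171 bp for the wood-wall protein FLA12 was not called either, at 62.7 TPM in CK roots and 73.7 TPM in CK shoots. When contigs of its Swiss-Prot entry were summed, FLA12 was called higher in CK shoots (log2 ratio -1.58). Of 32 laccase contigs, enzymes that join lignin units, 13 were called higher in CK roots and 18 in CK shoots, and of the 6 of at least 1000 bp, 1 was called higher in CK roots and 5 in CK shoots. LAC16, on a contig of 573 bp, had 129 TPM in CK roots and 1.40 TPM in CK shoots.

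Genes for phosphate uptake and for export to the xylem were among those higher in CK roots. Of 99 genes for phosphate, sulfate and potassium transport, 43 were called higher in CK roots (43.4%) and 39 in CK shoots (39.4%), and at 1000 bp and over, 18 of 45 were called higher in CK roots and 15 in CK shoots. PHO1, which loads phosphate into the xylem, had 155 TPM in CK roots and 13.9 TPM in CK shoots, a log2 ratio of 3.39. PHT1-4, a phosphate uptake carrier, had 116 TPM in CK roots and 19.3 TPM in CK shoots. Of 13 contigs of the PHT1 family, 10 were called higher in CK roots and 2 in CK shoots, with sums of 658 TPM in CK roots and 94.1 TPM in CK shoots, although 2 of the 13 were at least 1000 bp long. PHT2-1, the chloroplast phosphate carrier, leaned to shoots without being called, at 22.9 TPM in CK roots and 41.4 TPM in CK shoots.

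Potassium genes stood on both sides. SKOR, the channel that releases potassium into the xylem, had 112 TPM in CK roots and 14.96 TPM in CK shoots. POT6, a potassium carrier, had 104 TPM in CK roots and 12.7 TPM in CK shoots. AKT2, a channel of the phloem, had 0.06 TPM in CK roots and 43.4 TPM in CK shoots. KAT1, a guard cell channel in Arabidopsis, was listed at 0 in CK roots and had 28.6 TPM in CK shoots. POT2, another carrier, had 11.97 TPM in CK roots and 97.96 TPM in CK shoots. Counted together, 7 of 23 potassium channel contigs were called higher in CK roots and 16 in CK shoots, and 10 of 21 potassium transporter contigs higher in CK roots and 6 in CK shoots.

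Of 129 nitrogen genes, 32 were called higher in CK roots (24.8%) and 70 in CK shoots (54.3%), beside 19.7% and 52.3% of all plant-matched genes. At 1000 bp and over the shares were 27.6% in CK roots and 43.1% in CK shoots, beside 15.5% and 40.8% for all of that length. The median over all lengths turned from -1.62 to 0.18 where only genes above 0 in both CK libraries were kept. Both contigs of high-affinity nitrate transport were called higher in CK roots. NRT2.1, the high-affinity nitrate carrier, had 88.8 TPM in CK roots and was listed at 0 in CK shoots. Its partner NRT3.1 had 523 TPM in CK roots and 129 TPM in CK shoots. NPF7.3, which loads nitrate into the xylem in Arabidopsis, had 151 TPM in CK roots and 3.43 TPM in CK shoots, a log2 ratio of 5.10. Across the whole nitrate and peptide carrier family (NPF), 17 of 71 contigs were called higher in CK roots (23.9%) and 41 in CK shoots (57.7%). These were near the shares of all plant-matched genes at all lengths. At 1000 bp and over, 9 of 27 NPF contigs were called higher in CK roots and 12 in CK shoots, a root share above the 15.5% of that length. Of 11 ammonium carrier contigs, 4 were called higher in CK roots and 6 in CK shoots. AMT1-1 had 89.6 TPM in CK roots and 27.9 TPM in CK shoots, while AMT3-3 was at 0 in CK roots and at 69.4 TPM in CK shoots. Glutamine synthetase assimilates ammonium. Its chloroplast form had 0.31 TPM in CK roots and 349.6 TPM in CK shoots, whereas the cytosolic form GS1-1 had 236 TPM in CK roots and 316 TPM in CK shoots, under the threshold. The ferredoxin-dependent glutamate synthase GLU1 had 27.6 TPM in CK roots and 77.5 TPM in CK shoots. The amino acid permease AAP3 had 2 long contigs, one with 361 TPM in CK roots and 129 TPM in CK shoots and one with 7.63 TPM in CK roots and 56.8 TPM in CK shoots.

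Of 110 metal genes, 31 were called higher in CK roots (28.2%) and 56 in CK shoots (50.9%). The median turned from -1.09 to 0.12 where only genes above 0 in both CK libraries were kept. Of 8 contigs of the ZIP family of zinc and iron carriers, 2 were called higher in CK roots and 4 in CK shoots. HMA4, a zinc pump of the xylem parenchyma in Arabidopsis (an HMA3-like pump by its walnut match), had 121 TPM in CK roots and 12.3 TPM in CK shoots. IRT3, a ZIP member with a chloroplast name, had 153 TPM in CK roots and 40 TPM in CK shoots. Nicotianamine synthase, which makes a metal chelator, had 123.5 TPM in CK roots and 29.7 TPM in CK shoots. NRAMP5, a manganese carrier of rice roots, had 55.9 TPM in CK roots and was listed at 0 in CK shoots. Metal-binding HIPP proteins were near the shares of all plant-matched genes, with 8 of 36 called higher in CK roots (22.2%) and 21 in CK shoots (58.3%). Of the 7 of at least 1000 bp, 1 was called higher in CK roots and 5 in CK shoots. HIPP39 stood at 92.8 TPM in CK roots and 32.5 TPM in CK shoots (not called in sums per Swiss-Prot entry, log2 ratio 0.25), and HIPP07 at 5.53 TPM in CK roots and 94.4 TPM in CK shoots. The ferric reductase FRO7 had 2.66 TPM in CK roots and 49.9 TPM in CK shoots, and ferritin-3, an iron store, was at 0 in CK roots and at 71.6 TPM in CK shoots. Ferritin-2 had 82.8 TPM in CK roots and 133 TPM in CK shoots and was not called.

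Water channels had the highest root sum of the lists for water, nutrients, metals and sugar. The 18 aquaporin contigs together held 4483 TPM in CK roots and 1742 TPM in CK shoots, with 6 called higher in each tissue. TIP1-3, of the vacuole membrane, had 1094 TPM in CK roots and 3.25 TPM in CK shoots, a 337-fold difference. A second TIP1-3 contig of 1006 bp, named TIP41 in its other protein match, had 53.4 TPM in CK roots and 3.15 TPM in CK shoots. PIP2-1, of the plasma membrane, had 1748 TPM in CK roots and 238 TPM in CK shoots. The 5 tonoplast contigs together had 1278 TPM in CK roots and 114 TPM in CK shoots, most of it from that 1 contig of 989 bp. PIP2-2 was represented on both sides. A contig of 1353 bp had 549 TPM in CK roots and 108 TPM in CK shoots, and a contig of 1229 bp had 2.32 TPM in CK roots and 327 TPM in CK shoots. PIP1-3 and PIP2-7 were present in both tissues without a call, PIP1-3 at 432 TPM in CK roots and 278 TPM in CK shoots and PIP2-7 at 239.8 TPM in CK roots and 401 TPM in CK shoots.

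**Figure D4:**
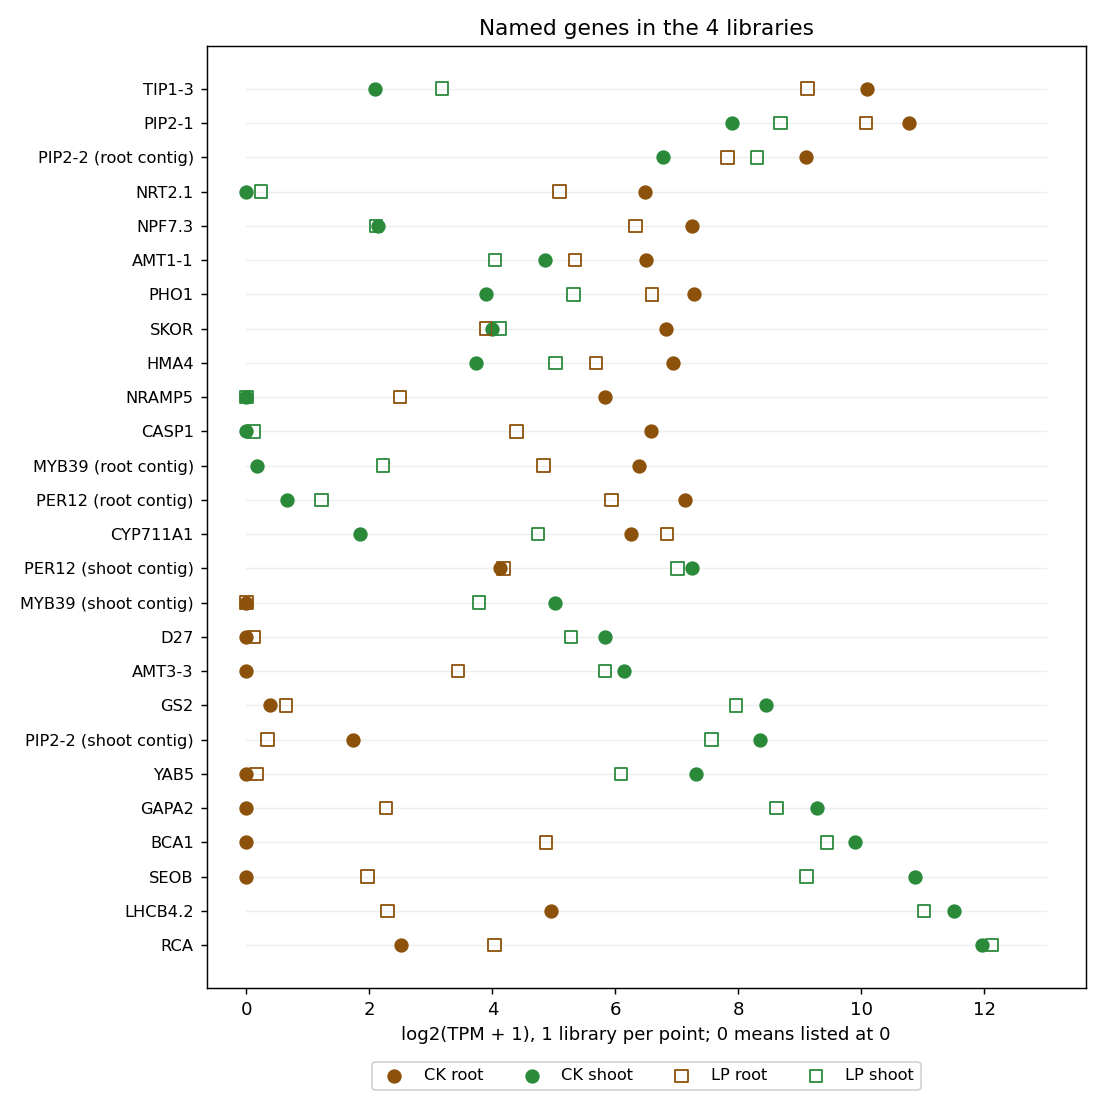
Each row is 1 named gene and each point 1 library, on a log2(TPM + 1) scale, with filled circles for CK, open squares for LP, brown for roots and green for shoots. Upper rows have their CK root circle to the right of the CK shoot circle and lower rows the reverse, and SKOR is a row in which the LP squares lie together at 13.9 TPM in LP roots and 16.3 TPM in LP shoots.

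The endodermal barrier list had genes on both sides, with a root share above that of all plant-matched genes. Of 63 suberin and Casparian strip genes, 22 were called higher in CK roots (34.9%) and 29 in CK shoots (46.0%), and the median was -0.08. The shares of all plant-matched genes were 19.7% and 52.3%. At 1000 bp and over the list had 30% in CK roots and 45% in CK shoots, beside 15.5% and 40.8% for all of that length. MYB36, which switches on Casparian strip genes in Arabidopsis, had 14.01 TPM in CK roots and was listed at 0 in CK shoots. A further contig with this Swiss-Prot name, 375 bp long, stood at 0 in CK roots and had 16.9 TPM in CK shoots. Its walnut match names the transcription factor RAX1, so its name is uncertain. CASPL1D1, of the family of Casparian strip membrane proteins, had 144 TPM in CK roots and 20.6 TPM in CK shoots. CASPL4A3, of the same family, had 97.96 TPM in CK roots and 9.41 TPM in CK shoots. A contig named GSO2, a receptor kinase whose close relative guards the strip in Arabidopsis, had 54.9 TPM in CK roots and 3.29 TPM in CK shoots. Its walnut match names the receptor kinase At3g47570 and its orthology column FLS2, so the name is uncertain. MYB39, a suberin regulator, had a contig of 920 bp with 83.1 TPM in CK roots and 0.12 TPM in CK shoots, and another of 1387 bp at 0 in CK roots and 31.4 TPM in CK shoots. The walnut match of the 920 bp contig names MYB30, so that name is uncertain as well. The feruloyl transferase HHT1 (1676 bp) had 116 TPM in CK roots and 82.1 TPM in CK shoots and was not called. The exporter ABCG20 was on the shoot side, 6.22 TPM in CK roots and 49.1 TPM in CK shoots. The list's name pattern also took in the antioxidant enzymes APX3 and GPX3, called higher in CK shoots.

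Root meristem and patterning genes were not root-sided as a list. Of 56, 10 were called higher in CK roots (17.9%) and 37 in CK shoots (66.1%), with 31 listed at 0 in CK roots. AIL6, a regulator of the PLETHORA clade that keeps root meristems active, had 43.2 TPM in CK roots and 3.14 TPM in CK shoots. SHORT-ROOT, which patterns the ground tissue, had 48.3 TPM in CK roots and 21.9 TPM in CK shoots, and was not called when contigs of one Swiss-Prot entry were summed (log2 ratio 0.06). SCL3 had 49.1 TPM in CK roots and 19.7 TPM in CK shoots. SCARECROW had a contig that was not called and one higher in CK shoots, with 28.9 TPM in CK roots and 17.7 TPM in CK shoots for a contig of 543 bp and 0.17 TPM in CK roots and 26.4 TPM in CK shoots for one of 1313 bp. BABY BOOM, of the same clade, had 19.9 TPM in CK roots and was listed at 0 in CK shoots, on a short contig. AIL1 was called higher in CK shoots, 5.27 TPM in CK roots and 35.6 TPM in CK shoots. Where only genes above 0 in both CK libraries were kept, the list's median turned from -2.42 to 0.38.

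Cell division genes formed the longest list and lay mostly in shoots. Of 221 cell cycle and histone genes, 6 were called higher in CK roots and 190 in CK shoots, and 141 were listed at 0 in CK roots. Of 77 kinesin contigs 72 were called higher in CK shoots, and of 47 cyclin contigs 35 were. Histone H3.2 (HTR2), made in S phase, had 6.72 TPM in CK roots and 452 TPM in CK shoots. A histone H2B gene (H2B.11) was listed at 0 in CK roots and had 295 TPM in CK shoots. Histone H3.3 (HTR4), which is made outside S phase as well, differed less, 227 TPM in CK roots and 508 TPM in CK shoots, and was under the threshold (-0.87) when both libraries were scaled to the same total over plant-matched genes. The linker histone H1 had 56.2 TPM in CK roots and 346 TPM in CK shoots. CDKF-4, a cyclin-dependent kinase, was on the root side, with 246 TPM in CK roots and 114 TPM in CK shoots. At 1000 bp and over, 2 of 69 genes of this list were called higher in CK roots and 50 in CK shoots.

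Of 146 ribosomal protein genes, 17 were called higher in CK roots, 56 in CK shoots and 73 in neither, with a median log2 ratio of -0.61. Of the 24 of at least 1000 bp, 0 were called higher in CK roots and 14 in CK shoots (58.3%), with a median of -1.05, below the -0.59 of all plant-matched genes of that length. RPL17B had 732 TPM in CK roots and 691 TPM in CK shoots, and RPL7B 295 TPM in CK roots and 419.6 TPM in CK shoots. RPL5 had 132 TPM in CK roots and 364 TPM in CK shoots and RPL27AC 134 TPM in CK roots and 463 TPM in CK shoots, both called.

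In sugar metabolism and transport, 40 of 126 genes were called higher in CK roots (31.7%) and 50 in CK shoots (39.7%). PLT4, a polyol carrier, had 171 TPM in CK roots and 24.6 TPM in CK shoots. The trehalose-phosphate synthase TPS6 had 143 TPM in CK roots and 38.5 TPM in CK shoots, and 6 of 13 contigs of that family were called higher in CK roots and 3 in CK shoots. The fructokinase FRK1 had 39.1 TPM in CK roots and 167 TPM in CK shoots. A soluble acid invertase (INV*DC4), which splits sucrose in the vacuole, had 7.94 TPM in CK roots and 80.95 TPM in CK shoots. The sugar carriers SWEET1 and SWEET16 were listed at 0 in CK roots and had 50.5 TPM and 42.9 TPM in CK shoots. Starch genes were shoot-sided, 2 of 52 called higher in CK roots and 35 in CK shoots. Of those higher in CK roots, one was an inhibitor of alpha-amylase and the other a contig of 246 bp for an inactive subunit. The granule-bound synthase WAXY had 71.6 TPM in CK roots and 177 TPM in CK shoots. ADG2, a large subunit of the enzyme that makes ADP-glucose, was at 0 in CK roots and at 83.6 TPM in CK shoots. The cytosolic-type phosphorylase (H isozyme) was not called, at 352 TPM in CK roots and 269.9 TPM in CK shoots.

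Hormone genes stood on both sides. Of 49 cytokinin and strigolactone genes, 12 were called higher in CK roots (24.5%) and 20 in CK shoots (40.8%). CYP711A1, the MAX1 enzyme of strigolactone synthesis, had 75.1 TPM in CK roots and 2.59 TPM in CK shoots. D27, the isomerase at the start of the same pathway, was listed at 0 in CK roots and had 55.7 TPM in CK shoots. Among cytokinin response regulators, ARR11, of the activating type, had 136 TPM in CK roots and 7.76 TPM in CK shoots. The repressive types ARR9 and ARR6 lay in shoots, ARR9 at 9.51 TPM in CK roots and 38.02 TPM in CK shoots and ARR6 at 9.51 TPM in CK roots and 32.4 TPM in CK shoots. A LOG-like gene, for the last step of cytokinin activation, had 8.96 TPM in CK roots and 371 TPM in CK shoots.

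Of 127 auxin genes, 28 were called higher in CK roots (22.0%) and 59 in CK shoots (46.5%), beside 19.7% and 52.3% of all plant-matched genes. The receptor TIR1, which binds auxin, had 44.8 TPM in CK roots and 209.8 TPM in CK shoots, and the repressor IAA14 17.5 TPM in CK roots and 181 TPM in CK shoots. ARF19, an activating response factor, had 100.2 TPM in CK roots and 25.4 TPM in CK shoots. IAA11, a repressor, had 121 TPM in CK roots and 18.8 TPM in CK shoots. PILS2, an auxin carrier of the endoplasmic reticulum, had 116 TPM in CK roots and 15.8 TPM in CK shoots. In the gibberellin, abscisic acid and ethylene list, 31 of 108 genes were called higher in CK roots (28.7%) and 52 in CK shoots (48.1%). The abscisic acid receptors PYL4 and PYL8 were root-sided, PYL4 at 129.9 TPM in CK roots and 2.78 TPM in CK shoots and PYL8 at 237 TPM in CK roots and 60.8 TPM in CK shoots. DPBF3, a transcription factor of abscisic acid response, had 113 TPM in CK roots and 10.03 TPM in CK shoots. GID1B, a gibberellin receptor, had 95.6 TPM in CK roots and 16.2 TPM in CK shoots. The gibberellin-regulated GASA6 (1105 bp) had 75.5 TPM in CK roots and 167 TPM in CK shoots, under the threshold (-0.85) when both libraries were scaled to the same total over plant-matched genes.

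Of 64 flavonoid genes, 19 were called higher in CK roots (29.7%) and 37 in CK shoots (57.8%), and the median turned from -2.09 to 0.17 where only genes above 0 in both CK libraries were kept. Of 15 contigs for enzymes of the backbone toward anthocyanins and tannins, 2 were called higher in CK roots, 9 in CK shoots and 4 in neither. Flavanone 3-hydroxylase (F3H) had 1.32 TPM in CK roots and 161 TPM in CK shoots. A probable chalcone isomerase (CHI3) had 30.9 TPM in CK roots and 181 TPM in CK shoots. Dihydroflavonol reductase (DFR) had 11.9 TPM in CK roots and 164 TPM in CK shoots. Anthocyanidin synthase (ANS) had 7.68 TPM in CK roots and 260.1 TPM in CK shoots and anthocyanidin reductase (ANR) 9.01 TPM in CK roots and 204 TPM in CK shoots. A contig for flavonol synthase (FLS, 671 bp), on a side branch, had 46.7 TPM in CK roots and 8.06 TPM in CK shoots, and its log2 ratio of 2.398 turned to -1.01 when contigs of one Swiss-Prot entry were summed. Chalcone synthase, the entry enzyme, had 50.7 TPM in CK roots and 31.3 TPM in CK shoots for its contig of 3027 bp, which was not called. Anthocyanidin glucosyltransferases, which attach sugars, were called higher in CK roots in 6 of 14 contigs and in CK shoots in 6, and none of the 5 contigs of at least 1000 bp was called higher in CK roots.

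Triterpenoids such as betulinic acid are typical of birch. Of 46 triterpenoid and sterol genes, 8 were called higher in CK roots (17.4%) and 26 in CK shoots (56.5%), near the shares of all plant-matched genes. At 1000 bp and over the shares were 9.09% in CK roots and 50% in CK shoots, beside 15.5% and 40.8% for all of that length. HMG-CoA reductase (HMG1), early in the pathway, had 11.1 TPM in CK roots and 71.5 TPM in CK shoots. Farnesyl pyrophosphate synthase 2 had 6.84 TPM in CK roots and 110.2 TPM in CK shoots, and squalene monooxygenase, which makes the precursor of sterols and triterpenoids, 10.7 TPM in CK roots and 122 TPM in CK shoots. SMT2, of the sterol branch, had 28.1 TPM in CK roots and 90.5 TPM in CK shoots. Mevalonate kinase (MVK) lay on the root side, at 135 TPM in CK roots and 14.6 TPM in CK shoots. CYP716B1, named after a conifer member of a P450 family that oxidises triterpenoids and other terpenoids, had 311 TPM in CK roots and 409 TPM in CK shoots and was not called.

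Defence and peroxidase genes were high in both tissues with different members. Of 144 defence genes, 45 were called higher in CK roots (31.2%) and 79 in CK shoots (54.9%). Contigs named germin-like, for secreted wall proteins, stood on the root side in 18 of 26 and on the shoot side in 6. Their sums were 2697 TPM in CK roots and 354 TPM in CK shoots. These sums leave out ABP19A, a germin family member under another name, with 0.45 TPM in CK roots and 1473 TPM in CK shoots. A germin-like T2 contig of 497 bp had 602 TPM in CK roots and 15.3 TPM in CK shoots, and a germin-like 1-7 contig of 767 bp had 342 TPM in CK roots and was listed at 0 in CK shoots. Of 6 major latex-like proteins, 2 were called higher in CK roots and 4 in CK shoots, with MLP34 at 467 TPM in CK roots and 17.7 TPM in CK shoots and MLP423 listed at 0 in CK roots and at 396 TPM in CK shoots. The endochitinase EP3 had 13.7 TPM in CK roots and 168 TPM in CK shoots, and a thaumatin-like protein 5.50 TPM in CK roots and 160.2 TPM in CK shoots. The defensin PDF2.5 was high in both, 609.8 TPM in CK roots and 392 TPM in CK shoots.

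Of 50 class III peroxidase contigs, wall enzymes that oxidise phenolics, 25 were called higher in CK roots and 22 in CK shoots. PER12 showed both sides. One contig of 1070 bp had 139.2 TPM in CK roots and 0.58 TPM in CK shoots, and one of 1115 bp had 16.4 TPM in CK roots and 151 TPM in CK shoots. PER72 had 126 TPM in CK roots and 14.4 TPM in CK shoots and PER51 147 TPM in CK roots and 44.4 TPM in CK shoots. PER10 had 135 TPM in CK roots and 4.71 TPM in CK shoots, PER3 126 TPM in CK roots and 11.4 TPM in CK shoots, and PER42 141 TPM in CK roots and 651 TPM in CK shoots. Of 32 glutathione transferases, 11 were called higher in CK roots and 15 in CK shoots, and of the 7 of at least 1000 bp, 0 were called higher in CK roots and 6 in CK shoots. HSP26-A stood at 163 TPM in CK roots and 4.15 TPM in CK shoots and the dehydroascorbate reductase DHAR2 at 158 TPM in CK roots and 483 TPM in CK shoots.

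Smaller lists added named genes to each side. Of 30 low oxygen and fermentation genes, 9 were called higher in CK roots (30%) and 13 in CK shoots (43.3%). Pyruvate decarboxylase PDC2 had 13.1 TPM in CK roots and 34.5 TPM in CK shoots. Of 37 symbiosis signalling genes, 14 were called higher in CK roots (37.8%) and 19 in CK shoots (51.4%). LYK5, a chitin receptor kinase, had 167 TPM in CK roots and 58.3 TPM in CK shoots, and LYK4 52.5 TPM in CK roots and 1.28 TPM in CK shoots. The symbiosis median turned from -1.38 to 1.05 where only genes above 0 in both CK libraries were kept. Of 21 root hair and root surface genes, 9 were called higher in CK roots (42.9%) and 8 in CK shoots (38.1%). The wall protein EXLA1 had 101.1 TPM in CK roots and 17.2 TPM in CK shoots and PER25 33.1 TPM in CK roots and 0.58 TPM in CK shoots, whereas LRX2 had 0.02 TPM in CK roots and 49.2 TPM in CK shoots. Of 34 wall-loosening genes, 12 were called higher in CK roots (35.3%) and 20 in CK shoots (58.8%). Of 15 expansins, which loosen walls during growth, 2 were called higher in CK roots and 12 in CK shoots, with EXPB3 at 21.9 TPM in CK roots and 176 TPM in CK shoots and EXPA4 at 10.2 TPM in CK roots and 77.5 TPM in CK shoots. XTH23 had 333 TPM in CK roots and 37.95 TPM in CK shoots, and XTH6 was listed at 0 in CK roots and had 199 TPM in CK shoots.

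Beyond the lists, the highest ratios among genes of at least 20 TPM and 500 bp included EXO70A1, an exocyst protein of secretion, with 378 TPM in CK roots and 1.47 TPM in CK shoots. The AT-hook proteins AHL22 and AHL23 had 199 TPM and 134 TPM in CK roots and were listed at 0 in CK shoots. The transporter ABCB11 had 169.7 TPM in CK roots and was at 0 in CK shoots. The most abundant plant-matched gene of CK roots was annotated as the receptor kinase CRK29, with 2765 TPM in CK roots and 40.7 TPM in CK shoots, on a contig of 387 bp. Also among the 15 most abundant was initiation factor 4A-1 of translation, 1024 TPM in CK roots and 347 TPM in CK shoots. MYB1R1, a transcription factor, had 1022 TPM in CK roots and 306 TPM in CK shoots, and the membrane protein At3g61750, with a cytochrome b561 domain, 1186 TPM in CK roots and 185 TPM in CK shoots. A contig named WRKY49 had 663 TPM in CK roots and 17.8 TPM in CK shoots. Its orthology column names WRKY transcription factor 33, but its protein domain column names a glyoxalase, so the name is uncertain.

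The lowest ratios included SIEVE ELEMENT OCCLUSION B, a phloem filament protein, listed at 0 in CK roots and 1869 TPM in CK shoots. The proline-rich protein DC2.15 was at 0 in CK roots and at 1079.7 TPM in CK shoots. CYP87A3, a cytochrome P450, was at 0 in CK roots and at 598 TPM in CK shoots. ABP19A, of the germin family, had 0.45 TPM in CK roots and 1473 TPM in CK shoots. Some of the most abundant plant-matched genes of CK shoots carried a protein name that their orthology column does not share. MYB44 had 46.7 TPM in CK roots and 6736 TPM in CK shoots, and its orthology column names a cytochrome oxidase assembly protein. Its other protein match is also a myb-like protein, and both MYB39 contigs carry the same orthology text. PCMP-H89 had 11.8 TPM in CK roots and 5805 TPM in CK shoots, and its column names a nucleotide kinase. AHK5 had 0.45 TPM in CK roots and 3797 TPM in CK shoots, and its column names an ethylene receptor. ATHB-51 had 16.4 TPM in CK roots and 2852 TPM in CK shoots, and its column names a pyridoxine dehydrogenase. The column also differs from the name for genes whose protein matches both name the same kind of protein, such as Rubisco activase (RCA) and NRT3.1.

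By the cell component that the annotation gives, thylakoid genes were most shoot-sided. Of 249 genes of the thylakoid membrane, 8.43% were called higher in CK roots and 74.7% in CK shoots. Of 3101 plasma membrane genes, 21.4% were called higher in CK roots and 48.5% in CK shoots. Of 445 genes of the endoplasmic reticulum, 21.6% were called higher in CK roots and 36.2% in CK shoots. Among genes of at least 1000 bp, 18.4% of plasma membrane genes were called higher in CK roots and 35.2% in CK shoots, beside 15.5% in CK roots and 40.8% in CK shoots for all plant-matched genes of that length. The same protein name often stood on both sides. Of 1219 Swiss-Prot entries matched by at least 2 contigs of at least 1000 bp, 161 had a contig called higher in each tissue, 44 had all contigs higher in CK roots and 204 all higher in CK shoots. Assembled contigs of one entry may be paralogs, alleles or parts of one gene, which cannot be told apart here.

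The LP libraries gave a second pair of roots and shoots. It shares no library with the CK pair but differs from it in phosphate, so it is no replicate. In that pair 17.3% of 24936 plant-matched genes of at least 1 TPM were called higher in LP roots and 55.4% in LP shoots. Of the 4532 genes called higher in CK roots, 1395 (30.8%) were called higher in LP roots and 1244 (27.4%) in LP shoots. Of the 12037 genes called higher in CK shoots, 820 (6.81%) were called higher in LP roots and 7744 (64.3%) in LP shoots. Among contigs of at least 1000 bp, 27.7% of those called higher in CK roots were also called higher in LP roots and 73.9% of those called higher in CK shoots were also called higher in LP shoots. For comparison, 9.34% of all plant-matched contigs of that length were called higher in LP roots and 52.9% in LP shoots.

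**Figure D5:**
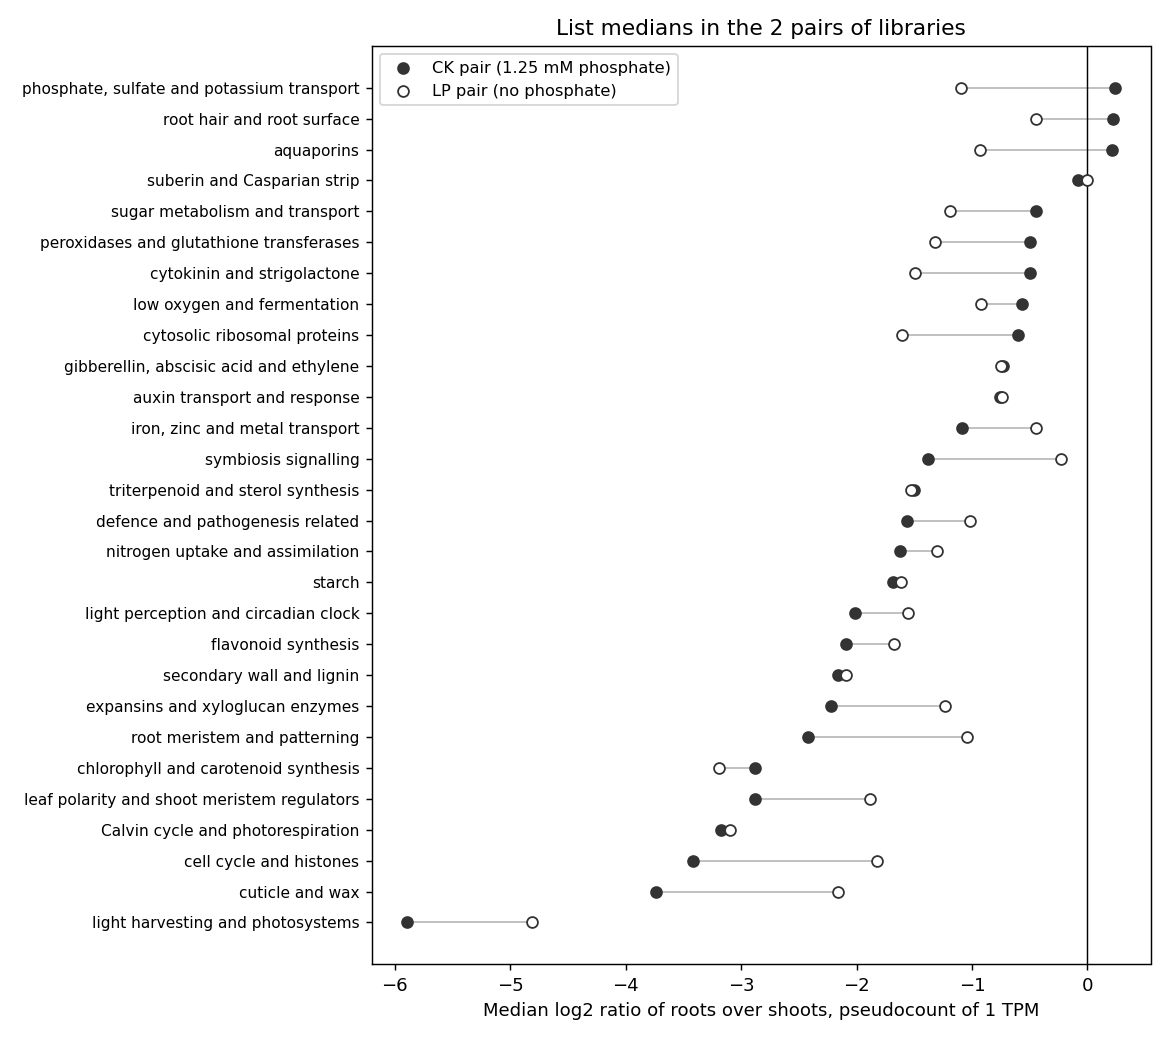
Points give the median log2 ratio of roots over shoots for each gene list, filled for the CK pair and open for the LP pair, with a line joining both. Light harvesting has the lowest median in both, -5.89 for CK and -4.82 for LP, and phosphate, sulfate and potassium transport has a median of 0.24 for CK and -1.10 for LP.

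The list medians of light harvesting, cell division and cuticle genes were below that of all plant-matched genes in both pairs. In the LP pair 1 light harvesting gene was called higher in LP roots and 37 in LP shoots. Several of the root genes named above were called higher in the roots of both pairs, and others were not. TIP1-3 (989 bp) had 559 TPM in LP roots and 8.06 TPM in LP shoots, and NRT2.1 33.2 TPM in LP roots and 0.18 TPM in LP shoots. NPF7.3 had 79.2 TPM in LP roots and 3.31 TPM in LP shoots, CASP1 20.02 TPM in LP roots and 0.08 TPM in LP shoots, and PER12 (1070 bp) 60.5 TPM in LP roots and 1.33 TPM in LP shoots. PHO1 had 95.7 TPM in LP roots and 38.9 TPM in LP shoots. The contigs named germin-like, without ABP19A, summed to 8732 TPM in LP roots and 396 TPM in LP shoots. The second TIP1-3 contig had 6.34 TPM in LP roots and 13.7 TPM in LP shoots and was not called. HMA4 had 50.4 TPM in LP roots and 31.6 TPM in LP shoots, and SKOR 13.9 TPM in LP roots and 16.3 TPM in LP shoots, neither of them called. PHT1-4 and NRT3.1 were called higher in LP shoots. PHT1-4 had 12.9 TPM in LP roots and 52.4 TPM in LP shoots, and the PHT1 family summed to 105 TPM in LP roots and 265 TPM in LP shoots. NRT3.1 had 84.1 TPM in LP roots and 380.4 TPM in LP shoots. Whether the phosphate supply or the individual libraries set these differences cannot be told apart.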

How the data were processed

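Poly(A) RNA of CK root, CK shoot, LP root and LP shoot was sequenced, 1 library each. Cutadapt 1.9 and FastQC were used per the submitters' processing notes; the assembler, aligner and quantifier: not given in the sources used here. The authors deposited TPM per assembled gene with its annotation; the unit was taken from the values, since each column has about the same sum, as TPM does. TPM keeps no read depth, so the depth per library is unknown apart from the value of 1 fragment at some lengths (differences within 0.0065 TPM were taken as whole fragments).

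With Python 3.11.15, pandas 2.3.3 and numpy 2.4.6, log2((CK root + 1)/(CK shoot + 1)) was computed for each plant-matched gene and called as the text describes; the calling code was tested on simulated data. Lists were drawn by patterns in protein names. Members, lists, families and cell components were chosen with earlier results of these data known, families and components after values were seen. Named genes were, per list, the 4 most abundant called higher in roots, the 4 most abundant called higher in shoots and the 2 most abundant uncalled; the 15 highest and 15 lowest ratios among genes of at least 20 TPM and 500 bp; the 15 most abundant genes of each CK library; markers of at least 10 TPM; and family members on both sides. Of these a part is printed, 200 genes in all with those outside the rule. Outside that rule, 9 genes were named after their values were seen (SBPase, FAMA, CYP86A1, NRT2.1, F3H, CHS, HMG1, WRKY49 and PHYB). The low oxygen list took in a cinnamyl alcohol dehydrogenase and the light list the chromatin gene PIE1. Alternatives were another pseudocount, minimum and threshold, 2 scalings, sums per Swiss-Prot entry, contigs of at least 1000 bp, and genes above 0 in both libraries. One item is not reported here. No genome or sequence was used here.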

Additional observations from a re-analysis of the deposited data

Results flagged for a closer look

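Of the 200 named genes, 15 were called to one side in the CK pair of libraries and to the other side in the LP pair. They were 8.38% of the 179 named genes called in the CK pair, against 12.5% (2064 of 16569) of all plant-matched genes called there, so the share is not above that of all. Each difference rests on 1 library per tissue and medium, and the difference between both media was not tested. Values below are log2 ratios of roots over shoots after adding 1 TPM.

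Carriers of nutrients and regulators of root and light responses were among those higher in CK roots and lower in LP roots. The phosphate carrier PHT1-4 had 2.52 in the CK pair and -1.94 in the LP pair. NRT3.1, the partner of nitrate carriers, had 2.01 for CK and -2.16 for LP. The root patterning gene SHR had 1.10 for CK and -1.86 for LP, the auxin repressor IAA11 2.63 for CK and -2.84 for LP, and the growth regulator TCP2 1.31 for CK and -1.79 for LP. The light receptor PHYA had 1.04 for CK and -1.64 for LP.

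Enzymes of walls and phenolics did the same. PER3 had 3.36 for CK and -1.82 for LP, and PER51 1.70 for CK and -1.39 for LP. The feruloyl transferase HHT1 (488 bp) had 5.79 for CK and -1.73 for LP, flavonol synthase FLS 2.398 for CK and -1.60 for LP, and the glutathione transferase HSP26-A 4.99 for CK and -1.11 for LP. The Rubisco small chain RBCS had 1.24 for CK and -2.46 for LP.

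In the opposite direction, the suberin exporter ABCG20 had -2.80 for CK and 1.22 for LP, and the chloroplast amylase BAM3 -5.44 for CK and 1.23 for LP. The antenna gene OsI_012078 had -4.11 for CK and 1.20 for LP, with 3698 TPM in LP roots and 1612 TPM in LP shoots.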

How the results depend on the processing

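As reported, 4532 genes were called higher in CK roots and 12037 in CK shoots. A log2 threshold of 2 gave 2635 higher in CK roots. Summing contigs of one Swiss-Prot entry gave 2989 in CK roots and 7969 in CK shoots. Contigs of at least 1000 bp gave 1474 in CK roots and 3880 in CK shoots with a median of -0.59, and genes above 0 in both CK libraries gave 4736 in CK shoots with a median of -0.22. The share of CK-called genes called on the same side in the LP pair was 55.2%, and 47.1% at a minimum of 5 TPM, 43.4% at a threshold of 2 and 61.2% at 1000 bp and over. Scaling both libraries to the same total over plant-matched genes moved the median of all from -1.17 to -0.999, with 5377 genes higher in CK roots and 11633 in CK shoots. No named gene changed sides under another pseudocount, minimum or either scaling, although that scaling brought HEMA2 and KCS2 over the threshold and GASA6 and HTR4 under it, and a minimum of 5 TPM lost CYP86A1.

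Summing per Swiss-Prot entry turned the sign of 7 named contigs, to -0.21 for HST (2121 bp), -0.26 for MYB36, 1.31 for MYB39 (1387 bp), 0.99 for AAP3 (1829 bp), 0.34 for PIP2-2 (1229 bp), -1.01 for FLS and -0.33 for PER12 (1070 bp). The MYB36 sum takes in the contig of 375 bp whose name is uncertain. Turns of sign were counted only for list medians of 1 or more in size. Of these, 5 turned positive among genes above 0 in both CK libraries. They were root meristem at 0.38, nitrogen at 0.18, metals at 0.12, flavonoids at 0.17 and symbiosis at 1.05. Smaller list medians were not counted, so more may have turned. By construction this setting leaves out the genes listed at 0 in CK roots. Keeping contigs of at least 1000 bp leaves 141 of the 200 named genes, and keeping genes above 0 in both CK libraries leaves 162. No paired analysis was possible because each group has 1 library and the labels carry no replicate numbers. For the same reason no value has an error, and zeros of short contigs cannot be told from low expression.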

Other observations

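Gene groups outside the lists were read by the cell component that the annotation names. Of 1779 mitochondrial genes, 17.1% were called higher in CK roots and 55.7% in CK shoots, and of 5742 nuclear genes 17.6% were higher in CK roots and 49.8% in CK shoots, beside 19.7% in CK roots and 52.3% in CK shoots for all plant-matched genes. Of 366 vacuolar genes, 13.9% were called higher in CK roots and 42.9% in CK shoots, and of 823 Golgi genes 21.0% were in CK roots and 40.6% in CK shoots. Of 343 cell wall genes, 24.8% were called higher in CK roots and 56.9% in CK shoots. At 1000 bp and over the cell wall shares were 12.3% in CK roots and 54.9% in CK shoots, beside 15.5% in CK roots and 40.8% in CK shoots for all plant-matched genes of that length.

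Several of the most abundant genes carry protein names that their other annotation columns do not share. LECRK61, named as a lectin receptor kinase, had 23.4 TPM in CK roots and 1807 TPM in CK shoots, and its orthology column names a photosystem II protein. CRK29, the most abundant plant-matched gene of CK roots, had 12572 TPM in LP roots and 82.3 TPM in LP shoots, and its orthology column names a chitinase. The contigs named here as LHCB5 and glycolate oxidase have orthology columns that share those names, but their walnut matches name unrelated proteins. Which name is right was not tested.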
